A study of Mus musculus with 25 samples.

Results

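The 10 genes described here were 8 Toll-like receptors (Tlr1, Tlr2, Tlr3, Tlr4, Tlr5, Tlr7, Tlr9 and Tlr13), the adaptor Myd88 and the co-receptor Cd14. They were chosen by name, and all 10 were found by symbol among the 24984 genes of the raw count table. The study asked how the dose of oncogenic Ras shapes hepatic tumours and their stroma, and RNA sequencing of 25 libraries was used here. The questions for these genes were where they were expressed, in tumour cells or in stroma, and whether their levels differed between tumour sites or with the Ras dose.

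BMEL cells are a bipotential mouse embryonic liver line of C57BL/6 and C3H origin, and the parental cells were derived from a single clone. BMEL WT (3 cultures, labelled as carrying an empty vector), RasLOW (3 cultures) and RasHIGH (3 cultures) all grew on collagen. The last 2 carried a viral HRasG12V transgene with a fluorescent reporter and had been sorted for low or high reporter intensity, and their ranges of Ras expression overlapped. Liver tumour cells and peritoneal tumour cells (4 mice each) were sorted as reporter-positive cells from grafts of transduced BMEL cells in athymic nude mice, and liver stroma and peritoneal stroma (4 mice each) were the reporter-negative cells of the same tumours. Nude mice lack most mature T cells. The sources used here do not give the age of the mice, or which Ras population formed the sequenced tumours.

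Libraries held 20818989 to 51241336 counts, so that 3 counts corresponded to 0.0576 to 0.141 CPM, counts scaled to a common library size. Correlations within groups ranged from 0.984 to 0.998. BMEL WT replicates 1 and 2 shared a sequencing lane with none of the Ras libraries. Counts of the mouse Hras gene overlapped between BMEL WT (80.4 ± 8.23 CPM, mean ± SD, n = 3), RasLOW (78.6 ± 28.4, n = 3) and RasHIGH (67.4 ± 15.2, n = 3), and did not serve to check the Ras labels, so groups are named as labelled. Of 5 epithelial genes that served as markers of the tumour cells, Krt8, Krt18, Krt19 and Afp were higher in tumour cells than in stroma at both sites, and Epcam went the other way. Epcam had 0.0676 and 0.0490 CPM in liver and peritoneal tumour cells, 0 to 0.329 CPM on average in the cultured groups, and 5.61 and 4.37 CPM in the stromas. All 5 summed to 7352 to 10298 CPM in tumour cells and 541 to 1354 CPM in stroma, and 4 leukocyte genes (Ptprc, Laptm5, Tyrobp and Fcer1g) summed to 1885 to 3596 CPM in stroma. In cultures those 4 genes summed to at most 0.413 CPM. The peritoneal tumour library of mouse 1 stood apart, with a leukocyte sum of 58.2 CPM against 4.28 to 12.4 CPM in the other 7 tumour libraries. Results that rest on it are given with and without it.

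Toll-like receptors are germline-encoded sensors of microbial molecules and of material from damaged cells. Tlr1, Tlr2, Tlr4 and Tlr5 act at the cell surface on lipopeptides, lipopolysaccharide and flagellin, whereas Tlr3, Tlr7, Tlr9 and Tlr13 act in endosomes on nucleic acids and depend on the chaperone Unc93b1. Cd14 hands lipopolysaccharide to the complex of Tlr4 and Ly96. All of these receptors except Tlr3 signal through Myd88, which recruits Irak kinases and leads to NF-kB activation. In the liver, macrophages are best known for this pathway, and gut-derived bacterial products reach them through the portal vein.

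In mm9 with the GENCODE M1 annotation, the receptor genes lay on several chromosomes: Tlr1 (chr5:65316050-65324000, minus strand), Tlr2 (chr3:83640195-83645689, minus), Tlr3 (chr8:46481019-46495962, minus), Tlr4 (chr4:66488618-66591318, plus), Tlr5 (chr1:184884919-184906175, plus), Tlr7 (chrX:163742861-163768490, minus), Tlr9 (chr9:106124929-106129207, plus) and Tlr13 (chrX:103338543-103355832, plus). Myd88 lay at chr9:119245052-119250529 on the minus strand and Cd14 on another autosome. Tlr1 lay 20344 bp from Tlr6, and Tlr7 lay 40599 bp from Tlr8. Of the 50-base windows of Tlr1 exons, 454 of 2603 (17.4%) also occurred in Tlr6, so the split of reads between these 2 genes is uncertain. Exons of Myd88 overlapped those of Acaa1a on the other strand by 67 bp (2.60% of Myd88). Strand use in counting was not given in the sources used here, so reads from that stretch cannot be assigned.

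Sequence upstream of the start was taken from RefSeq (GRCm38.p6) as 250 bases on the gene's own strand, and 7 of the 10 members had an entry (8 windows, 2 of them for Tlr1). Of the 8 windows, 3 held a searched motif and 5 held none (the other Tlr1 window and those of Tlr2, Tlr3, Tlr5 and Myd88). The windows of Tlr1, Tlr9 and Tlr13 are shown because they held a match, and that of Tlr2 because it held none although Tlr2 was likewise high in stroma. Capitals mark GAGGAA, the core bound by the myeloid factor Spi1, and TGANTCA, the AP-1 site, searched on both strands; the 2 matches in Tlr9 did not overlap.
Tlr1 (chr5:64933559-64933808, minus strand): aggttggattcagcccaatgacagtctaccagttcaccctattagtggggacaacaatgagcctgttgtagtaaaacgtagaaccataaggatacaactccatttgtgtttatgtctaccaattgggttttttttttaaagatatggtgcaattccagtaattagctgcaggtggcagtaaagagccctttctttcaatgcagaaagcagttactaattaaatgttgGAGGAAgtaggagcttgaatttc
Tlr2 (chr3:83841609-83841858, minus strand): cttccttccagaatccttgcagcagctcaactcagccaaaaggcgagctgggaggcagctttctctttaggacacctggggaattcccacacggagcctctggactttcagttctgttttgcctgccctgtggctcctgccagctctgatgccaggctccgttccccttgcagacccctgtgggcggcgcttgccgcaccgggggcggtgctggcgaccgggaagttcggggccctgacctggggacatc
Tlr9 (chr9:106222348-106222597, plus strand): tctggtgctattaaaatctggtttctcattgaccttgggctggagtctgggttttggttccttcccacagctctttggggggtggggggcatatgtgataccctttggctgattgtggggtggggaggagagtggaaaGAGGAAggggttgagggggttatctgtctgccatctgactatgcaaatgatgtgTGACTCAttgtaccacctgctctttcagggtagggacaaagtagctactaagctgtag
Tlr13 (chrX:106143025-106143274, plus strand): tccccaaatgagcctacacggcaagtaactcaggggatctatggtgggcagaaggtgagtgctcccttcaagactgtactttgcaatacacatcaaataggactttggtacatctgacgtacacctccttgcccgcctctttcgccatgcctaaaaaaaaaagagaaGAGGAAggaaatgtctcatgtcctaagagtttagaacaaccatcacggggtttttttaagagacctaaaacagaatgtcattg
GAGGAA occurred in 23.3% and TGANTCA in 6.75% of the 32851 RefSeq windows of this length. A single exact form of the NF-kB site, searched without variant letters, occurred in 0.140% of them and in none of the members' windows. Other forms of that site were not searched, so their absence from these windows was not tested. These matches are descriptions of letters, not of binding.

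All 10 members had their highest group mean in stroma, liver stroma for 9 of them and peritoneal stroma for Tlr5. Per kilobase of exon, the order in liver stroma was Cd14 (904 CPM per kb), Tlr2 (91.1), Myd88 (77.5), Tlr13 (31.8), Tlr4 (28.3), Tlr1 (18.1), Tlr9 (9.60), Tlr7 (8.17), Tlr3 (4.37) and Tlr5 (1.73). The 4 mice's values overlapped between the neighbours Tlr2 and Myd88, Tlr13 and Tlr4, and Tlr9 and Tlr7, and not between the other neighbours. Peritoneal stroma gave the same order, from 679 CPM per kb for Cd14 to 2.69 for Tlr5. In liver tumour cells the order differed: Cd14 (24.3 CPM per kb) and Myd88 (5.36) led, followed by Tlr1 (2.07), Tlr4 (1.64) and Tlr3 (0.562), with Tlr2 at 0.295 and the remaining receptors below it.

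**Figure D1:**
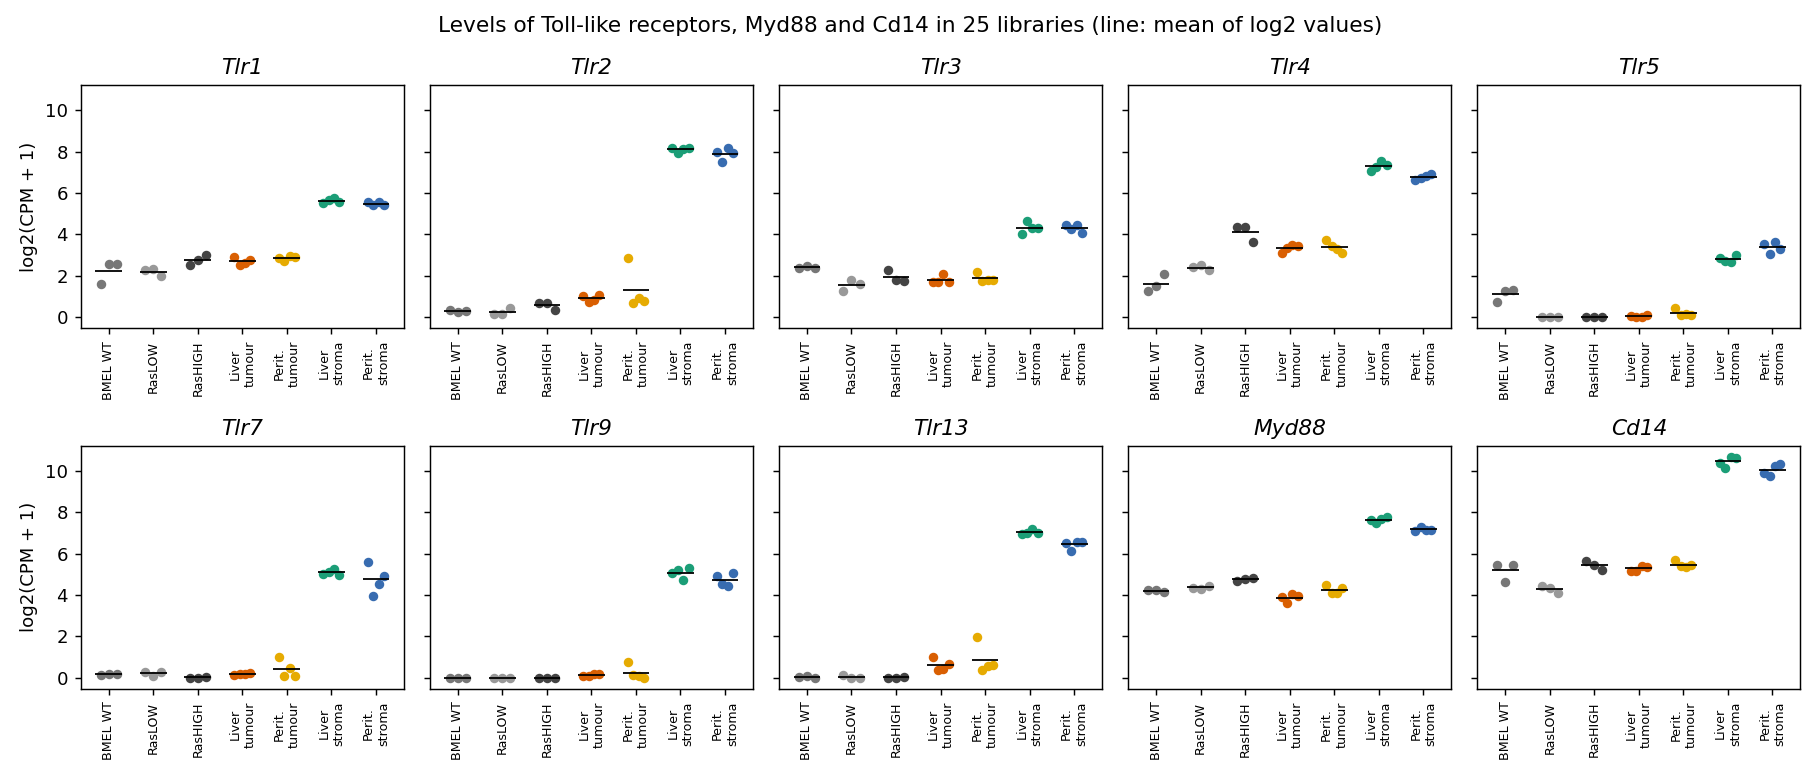
Levels of the 10 members in 25 libraries as log2(CPM + 1) on the y axis, with the 7 groups on the x axis; points are libraries and lines are means of the log2 values. The 8 stromal libraries lie above all others for every member, and Tlr2, Tlr7, Tlr9 and Tlr13 lie near 0 in the cultures.

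Tumour cells held less of all 10 members than stroma at both sites. Among the surface receptors, Tlr2, the lipopeptide receptor that pairs with Tlr1 or Tlr6, had 285, 244, 280 and 290 CPM in liver stroma of mice 1 to 4 and 1.004, 0.678, 0.788 and 1.09 CPM in the liver tumour cells. In the peritoneum it had 249.5, 179, 288 and 242 CPM in stroma and 6.30, 0.625, 0.864 and 0.701 CPM in tumour cells. The groups did not overlap at either site, and the value of 6.30 CPM came from the library of mouse 1 that stood apart. Tlr2 was lower in tumour cells by a log2 difference of -8.29 (SE 0.15) in the liver and -6.77 (SE 0.85) in the peritoneum, or -8.35 without that library.

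Tlr4, the lipopolysaccharide receptor, kept a clear level in tumour cells. It had 134, 149, 186 and 161 CPM in liver stroma against 7.48, 9.13, 10.2 and 9.63 CPM in liver tumour cells. Peritoneal stroma had 98.8, 103, 112 and 119.7 CPM and peritoneal tumour cells 12.2, 9.76, 8.89 and 7.68 CPM. Tumour cells were lower by -4.14 (SE 0.13) and -3.43 (SE 0.15) on the log2 scale. Tlr1 differed less, with 44.2 to 52.1 CPM in liver stroma against 4.75 to 6.43 CPM in liver tumour cells (log2 difference -3.15, SE 0.12) and 41.2 to 45.5 against 5.60 to 6.62 CPM in the peritoneum (-2.74, SE 0.088).

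Tlr5, the flagellin receptor, was the lowest member in stroma, with 6.30, 5.61, 5.43 and 6.98 CPM in the liver and 10.6, 7.22, 11.2 and 8.92 CPM in the peritoneum. The 4 liver tumour libraries held 1, 0, 0 and 2 counts of it, and the 4 peritoneal ones 12, 3, 5 and 2 counts. From 735 stromal and 3 tumour-cell counts the liver ratio was 290.3, with a 95% exact interval of 99.0 to 1411 that covers counting error only. In the peritoneum the log2 difference was -5.86 (SE 0.47), or -6.74 without mouse 1's tumour library.

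The endosomal receptors split in the same way. Tlr13, a receptor for bacterial ribosomal RNA, had 123, 127, 144 and 126 CPM in liver stroma and 0.981, 0.311, 0.333 and 0.576 CPM in liver tumour cells (log2 difference -7.85, SE 0.24). Its peritoneal values were 91.8, 69.4, 93.4 and 93.3 CPM in stroma and 2.97, 0.299, 0.480 and 0.517 CPM in tumour cells (-6.32, SE 0.67, or -7.66 without mouse 1's tumour library). Tlr9, which senses unmethylated CpG DNA, had 25.9 to 38.9 CPM in liver stroma against 2 to 5 counts per library (0.0565 to 0.151 CPM) in liver tumour cells, and 21.0 to 32.1 CPM in peritoneal stroma against 0 to 23 counts, with the 23 in mouse 1.

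Tlr7, a sensor of single-stranded RNA, had 30.3 to 37.6 CPM in liver stroma against 4 or 5 counts per liver tumour library, and 14.6 to 47.3 CPM in peritoneal stroma against 2 to 33 counts. Log2 differences for Tlr9 and Tlr7 were -8.39 (SE 0.25) and -7.96 (SE 0.18) in the liver. In the peritoneum they were -6.92 (SE 0.74) and -6.12 (SE 0.75), or -8.91 and -7.14 without that library. Tlr3, the receptor for double-stranded RNA, stood apart from these 3, with 14.99 to 24.2 CPM in liver stroma and 2.20 to 3.18 CPM in liver tumour cells (-2.98, SE 0.19). In the peritoneum it had 15.9 to 21.0 CPM in stroma and 2.39 to 3.50 CPM in tumour cells (-2.73, SE 0.17).

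Myd88 had 195, 179.8, 206 and 218 CPM in liver stroma and 14.2, 11.1, 15.4 and 14.6 CPM in liver tumour cells, a log2 difference of -3.88 (SE 0.12). In the peritoneum stroma had 137, 155, 139.8 and 142 CPM and tumour cells 21.3, 16.4, 16.3 and 19.4 CPM (-2.90, SE 0.11). Acaa1a, the neighbour that overlaps it, differed by -1.06 and -0.35 at the 2 sites. Cd14 had the highest counts of all members, with 1311, 1134, 1643 and 1595 CPM in liver stroma and 35.3, 35.4, 41.5 and 40.4 CPM in liver tumour cells (-5.25, SE 0.15). Peritoneal stroma had 947, 866, 1187 and 1267 CPM of Cd14 and peritoneal tumour cells 50.9, 41.6, 40.0 and 42.1 CPM (-4.54, SE 0.16).

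By edgeR's quasi-likelihood test, called at an adjusted p under 0.05, all 10 members were lower in tumour cells in the liver, where 39.4% of all genes tested were called lower and 38.4% higher. All 10 were also lower in the peritoneum, with 37.1% of genes called lower and 39.5% higher. The highest adjusted p-value of a member was 2.94e-08 for the liver and 0.000105 for the peritoneum. The median log2 difference over all genes was 0.00 in the liver and 0.07 in the peritoneum. No member lost its call when any library was left out. In bulk libraries, fewer cells that express a gene and less RNA per cell cannot be told apart.

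**Figure D2:**
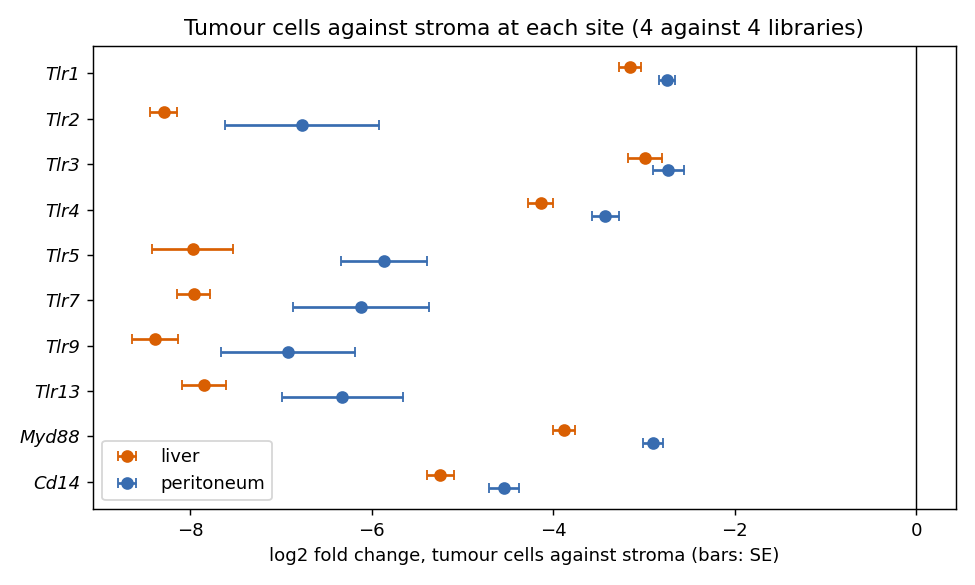
Log2 fold change of tumour cells against stroma on the x axis for each member (rows), in the liver and the peritoneum (4 against 4 libraries); bars are SE. All 20 points lie below 0, from -2.73 for Tlr3 in the peritoneum to -8.39 for Tlr9 in the liver.

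Expressed as a percent of the stroma of the same mouse, the members took 2 ranges, a division made after the values were seen. Tlr2, Tlr5, Tlr7, Tlr9 and Tlr13 had medians of 0.317%, 0.181%, 0.409%, 0.270% and 0.351% in liver tumour cells. Over 10 leukocyte and macrophage genes the median per mouse was 0.233% to 0.460% in the liver. In peritoneal mice 2 to 4 that median was 0.187% to 0.422%, while the 5 receptors ranged from 0 to 1.73%. In peritoneal mouse 1 it was 2.75%, and the same 5 receptors stood at 2.18% to 3.53%.

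The other 5 members lay higher in every liver pair. Medians in the liver were 13.4% for Tlr3, 11.1% for Tlr1, 6.99% for Myd88, 5.79% for Tlr4 and 2.61% for Cd14. In the peritoneum they were 14.6%, 14.2%, 12.7%, 8.71% and 4.09%. These members were also measured in the cultures, where the leukocyte genes were near 0. Presence in cultures did not fully separate the 2 ranges. Of the lower range, Tlr5 had 1.16 CPM on average in BMEL WT and 0 in RasLOW and RasHIGH. Tlr2 had 0.190 to 0.493 CPM on average in the cultured groups. Cd68 was the exception among the leukocyte and macrophage genes, at 4.04% and 4.08%, and it too had 3.03 to 6.00 CPM in the cultured groups. The part that leukocytes in the sorted tumour cells had in these levels was not tested.

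**Figure D3:**
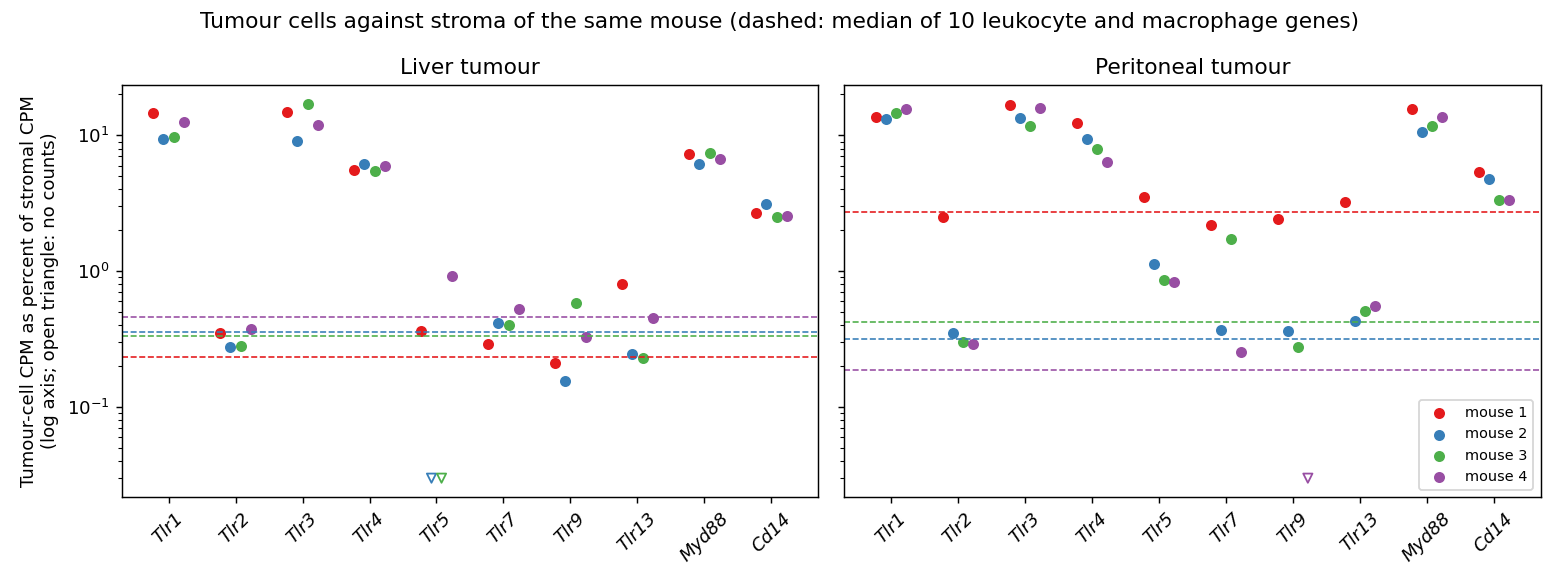
Tumour-cell CPM as a percent of stromal CPM of the same mouse on a log y axis for each member, in the liver (left) and the peritoneum (right), with colours for mice; dashed lines are the medians of 10 leukocyte and macrophage genes and open triangles mark no counts. In the liver Tlr2, Tlr7, Tlr9 and Tlr13 lie about the dashed lines of 0.233% to 0.460%, and Tlr1, Tlr3, Tlr4, Myd88 and Cd14 lie above them.

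Tumour cells can be set beside the cultures on the same CPM scale, although they differ in growth conditions and sorting and were not tested against each other. Tlr4 had 9.12 ± 1.18 CPM (n = 4) in liver and 9.63 ± 1.91 CPM (n = 4) in peritoneal tumour cells, between RasLOW (4.26 ± 0.441, n = 3) and RasHIGH (16.9 ± 4.60, n = 3). Cd14 had 38.1 ± 3.28 and 43.7 ± 4.93 CPM (n = 4 each), within the range of the BMEL WT and RasHIGH cultures for all but peritoneal mouse 1. Myd88 had 13.8 ± 1.89 CPM in liver tumour cells (n = 4), below all 9 cultures, and 18.3 ± 2.45 CPM in peritoneal ones (n = 4), within the range of the cultures in mice 1 and 4 and just below it in mice 2 and 3.

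Between the stromas, Tlr4, Tlr13 and Myd88 were higher in the liver and Tlr5 was higher in the peritoneum. The differences were small beside those between tumour cells and stroma. Myd88 was higher in liver stroma by 0.43 on the log2 scale (SE 0.083, adjusted p = 0.00346), Tlr13 by 0.53 (SE 0.11, adjusted p = 0.00401) and Tlr4 by 0.49 (SE 0.11, adjusted p = 0.0067), with no overlap between the 4 mice of each site for any of them. Tlr5 differed by -0.69 (SE 0.16, adjusted p = 0.0101), again with no overlap. Of all genes 14.9% were called higher and 18.5% lower in liver stroma, beside 3 and 1 of the 10 members.

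The other 6 members overlapped between the sites. Cd14 was 1421 ± 241 CPM in liver and 1067 ± 191 CPM in peritoneal stroma (n = 4 each), a log2 difference of 0.37 with adjusted p = 0.1, which became 0.00582 when the mouse was taken as a block and 0.0491 without the liver library of mouse 2. Tlr1 (log2 difference 0.09), Tlr2 (0.15), Tlr3 (-0.02), Tlr7 (0.19) and Tlr9 (0.30) did not pass. Tlr7 varied most among the peritoneal mice, with 47.3, 14.6, 22.1 and 29.2 CPM.

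Leukocyte markers moved with this comparison. All 4 leukocyte genes were higher in liver stroma, where they summed to 2943 to 3596 CPM against 1885 to 2410 CPM, as were 3 of 6 macrophage genes (sums 2841 to 3385 and 1957 to 2747 CPM). The 3 Kupffer cell genes (Clec4f, Vsig4 and Timd4) summed to 112 to 317 CPM in liver and 4.40 to 16.7 CPM in peritoneal stroma, and 1 of the 3 had no counts there. The 4 fibroblast genes (Col1a1, Col3a1, Pdgfrb and Dcn) were all lower in liver stroma, at 3024 to 6268 against 42737 to 64512 CPM.

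With libraries scaled to the 10 leukocyte and macrophage genes, Tlr4 differed by 0.07 (adjusted p = 0.75), Tlr13 by 0.13 (adjusted p = 0.467) and Myd88 by -0.011 (adjusted p = 0.962). Tlr5 differed by -1.09 (adjusted p = 0.00111). This scaling moved the median of all genes from 0.02 to -0.41, and the share of higher calls among all calls from 44.7% to 6.83%. A change of library scaling moves every gene and the median by about the same amount. The distance of Tlr4, Tlr13 and Myd88 above that median is therefore kept by construction, and nothing is drawn from it.

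**Figure D4:**
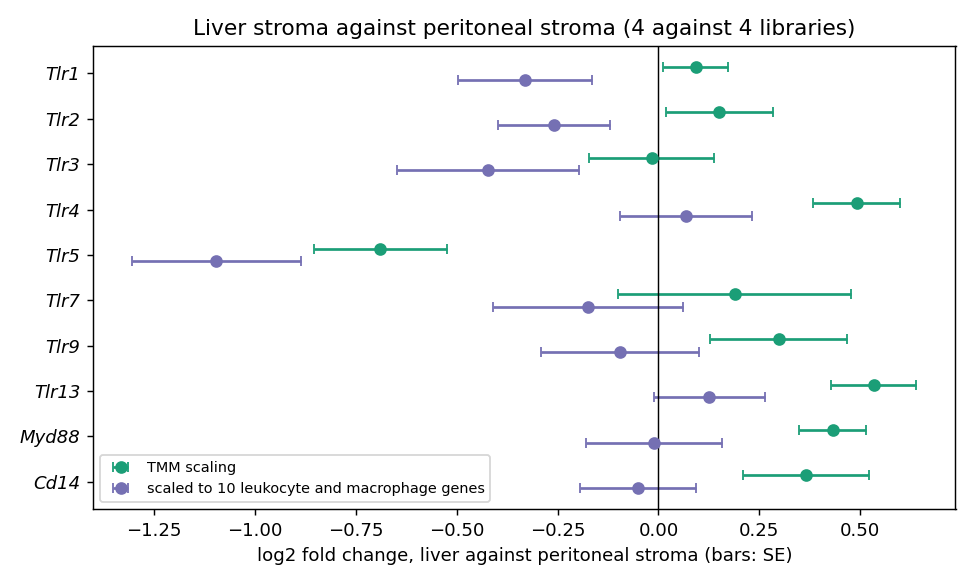
Log2 fold change of liver against peritoneal stroma on the x axis for each member (rows), with the default TMM scaling and with scaling to 10 leukocyte and macrophage genes (4 against 4 libraries); bars are SE. Myd88, Tlr4 and Tlr13 lie at 0.43 to 0.53 with the first scaling and at -0.011 to 0.13 with the second, and Tlr5 lies below 0 with both.

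No member passed the test between the tumour cells of the 2 sites. Of 7 members with enough counts, 0 passed edgeR's test and 0 passed DESeq2's, and 1 (Myd88, log2 difference -0.42, SE 0.13, adjusted p = 0.116) had an unadjusted p under 0.05, beside 20.2% of all genes tested. Background calls were 1.33% higher and 1.87% lower. Tlr2 and Tlr13 had log2 differences of -1.27 and -0.95, which became 0.27 and 0.37 without the peritoneal library of mouse 1.

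The difference between tumour cells and stroma was itself larger in the liver for Tlr4, Myd88 and Cd14. The interaction was -0.93 for Myd88 (SE 0.15, adjusted p = 0.000913), -0.66 for Tlr4 (SE 0.19, adjusted p = 0.0331) and -0.65 for Cd14 (SE 0.20, adjusted p = 0.0389), against a median of -0.12 over all genes. In this contrast 7.5% of genes were called lower and 6.79% higher, beside 3 and 0 of 10 members. Without the peritoneal tumour library of mouse 1, Myd88 stayed called at -0.75 (adjusted p = 0.0029), and Tlr4 (-0.43, adjusted p = 0.117) and Cd14 (-0.47, adjusted p = 0.128) did not pass. Over 22 alternatives Tlr4 lost its call in 13 and Cd14 in 15, among them the leaving out of single libraries from each of the 4 groups, and Myd88 in 0 (adjusted p 1.64e-05 to 0.00658). Tlr1 (-0.36, adjusted p = 0.0963) passed without the liver tumour library of mouse 1 (adjusted p = 0.0327). Krt8 (-0.88), Krt18 (-0.95), Krt19 (-0.99) and Afp (-1.38), genes of the tumour cells, were also called lower in this contrast. Their sums in stroma were 1048 to 1354 CPM in the liver and 541 to 929 CPM in the peritoneum with Epcam included. All 4 leukocyte genes were also higher in liver stroma (median log2 difference 0.53), and 0 of them were called in this contrast. The part that tumour cells or leukocytes in the stromal libraries had in the 3 calls was not tested.

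Cultured cells held 6 members at testable levels. Tlr4 and Myd88 were higher and Tlr5 was lower in RasHIGH than in BMEL WT. Tlr4 had 1.36, 1.83 and 3.22 CPM in BMEL WT, 4.28, 4.69 and 3.81 CPM in RasLOW and 19.5, 19.5 and 11.5 CPM in RasHIGH. The 3 groups did not overlap. RasHIGH exceeded BMEL WT by 2.94 on the log2 scale (SE 0.38, adjusted p = 0.00258), a 7.68-fold difference, whereas RasLOW exceeded it by 0.96 (SE 0.38, adjusted p = 0.195) and RasHIGH exceeded RasLOW by 1.98 (SE 0.28, adjusted p = 0.0842).

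Tlr5 had 19, 40 and 39 counts in BMEL WT (0.663, 1.38 and 1.44 CPM) and 0 counts in all 6 Ras cultures. Against a floor of 3 counts per library it was at least 9.55-fold lower in RasLOW and at least 8.59-fold lower in RasHIGH, with adjusted p of 0.0174 and 0.00565. In RasLOW the call was lost without BMEL WT replicate 2 (adjusted p = 0.0692) or 3 (0.0619) or RasLOW replicate 3 (0.0506).

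Myd88 had 18.2, 17.8 and 16.7 CPM in BMEL WT, 19.3, 18.9 and 20.8 CPM in RasLOW and 24.6, 26.7 and 27.3 CPM in RasHIGH, with no overlap. It was called higher in RasHIGH than in BMEL WT (log2 difference 0.54, SE 0.14, adjusted p = 0.0315). The call was lost without any BMEL WT library or RasHIGH replicate 2 or 3, at adjusted p of 0.0685 to 0.134. In RasLOW the log2 difference was 0.13 (adjusted p = 0.689).

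Cd14 had 42.6, 24.2 and 43.4 CPM in BMEL WT, 20.5, 19.5 and 16.01 CPM in RasLOW and 49.2, 42.5 and 35.6 CPM in RasHIGH. It was lowest in RasLOW without overlap, and differed by -1.01 from BMEL WT (adjusted p = 0.0623) and by 1.19 between RasHIGH and RasLOW (adjusted p = 0.0842). It passed against BMEL WT without BMEL WT replicate 2 (adjusted p = 0.0428) or RasLOW replicate 2 (0.041). Tlr3 had 4.26 to 4.44 CPM in BMEL WT against 1.40 to 2.43 CPM in RasLOW (-1.18, adjusted p = 0.0779) and 2.34 to 3.87 CPM in RasHIGH (-0.63, adjusted p = 0.144), and it passed without RasLOW replicate 2 (adjusted p = 0.0234) and without RasHIGH replicate 1 (0.0324). Tlr1 overlapped between BMEL WT (2.02 to 4.92 CPM) and both RasLOW (2.96 to 3.94) and RasHIGH (4.81 to 6.99).

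Of 6 members tested, 2 were called higher and 1 lower in RasHIGH against BMEL WT, where 10.9% of all genes were called higher and 11.7% lower. In RasLOW against BMEL WT 0 were called higher and 1 lower, against 1.92% and 4.05%. RasHIGH against RasLOW called 0 of 5 members, against 0.0585% of genes higher and 0.0167% lower. Here 4 of the 5 had an unadjusted p under 0.05, as did 9.78% of all genes tested, and DESeq2 called 2 members among 416 genes. With the libraries of lane 4 only, which left 1 BMEL WT library that is assumed to vary like the others, no member was called in either Ras group, and Tlr4 differed by 2.34 (adjusted p = 0.0876) in RasHIGH. The remaining 4 members were too low to test: Tlr9 had 0 counts in all 9 cultures, Tlr13 and Tlr7 had at most 3 and 6 counts in any culture, and Tlr2 had 3 to 16.

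**Figure D5:**
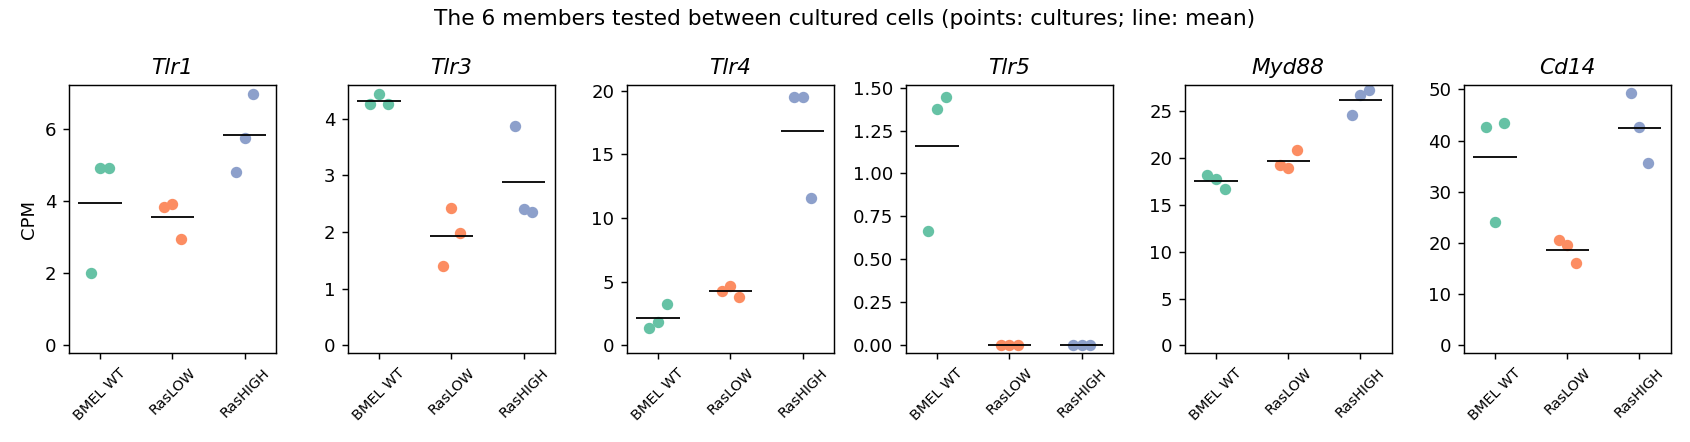
CPM (y axis) of the 6 members tested in BMEL WT, RasLOW and RasHIGH cultures (x axis, 3 cultures each); lines are means. Tlr4 rises from 1.36 to 3.22 CPM in BMEL WT to 11.5 to 19.5 CPM in RasHIGH, and Tlr5 lies at 0 in all Ras cultures.

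Other receptors and helpers of the pathway were lower in tumour cells as well. Of 12 further receptors, co-receptors and chaperones, 10 were lower and 0 higher at each site. Of all genes tested, 39.4% were lower and 38.4% higher in liver tumour cells, and 37.1% and 39.5% in peritoneal ones. In the liver Ly86, a partner of the receptor homologue Cd180, fell from 187 to 0.531 CPM, Tlr8 from 86.0 to 0.281 CPM, and Unc93b1, the chaperone of the endosomal receptors, from 617 to 2.07 CPM. Unc93b1 stood at 0.340% of stroma in the liver, close to the leukocyte genes, whereas Tlr3 stood at 13.4%. Ly96, the partner of Tlr4 at the cell surface, was singled out after its values were seen: it had 4.66 ± 0.688 CPM in liver tumour cells and 8.02 ± 1.32 CPM in liver stroma (n = 4 each), or 53.3% of stroma. Between the stromas, 5 of the 12 were higher and 2 lower in liver stroma, beside 14.9% and 18.5% of all genes. Lbp, the carrier protein that brings lipopolysaccharide to Cd14, had 24.0 ± 3.54 CPM in liver and 282 ± 56.1 CPM in peritoneal stroma (n = 4 each; log2 difference -3.60, adjusted p = 2.26e-06), and Tlr11 was higher in the liver (1.24). In the cultures Ly96 had 3.66, 3.63 and 5.71 CPM on average in BMEL WT, RasLOW and RasHIGH.

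Of 21 adaptors and kinases, 17 were lower and 2 higher in liver tumour cells, with a median log2 difference of -0.61. In peritoneal tumour cells 10 were lower and 3 higher, with a median of -0.31. Shares over all genes were 39.4% lower and 38.4% higher in the liver, and 37.1% and 39.5% in the peritoneum. The largest falls in the liver were in Ticam2, the adaptor that links Tlr4 to interferon induction (log2 difference -9.02), Irf5 (-7.36) and Irf7 (-4.71), transcription factors downstream of the endosomal receptors. Ikbkg, the regulatory subunit of the IkB kinase, was higher in tumour cells (1.02 in the liver and 1.64 in the peritoneum), as was Tab1 (0.67 and 0.71). In liver against peritoneal stroma, where 14.9% of all genes were higher, 10 of the 21 were higher and 0 lower, led by Irf5 (0.97), Irak2 (0.85) and Ikbkb (0.64), alongside the leukocyte genes given above. In the interaction 7 of the 21 were called lower and 0 higher, where 7.5% of all genes were lower and 6.79% higher. The other lists went both ways there: 3 of 10 negative regulators were lower and 0 higher, whereas 2 of 12 further receptors and co-receptors, 1 of 7 ligands and 1 of 11 targets were higher and 0 lower.

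Of 10 negative regulators, 7 were lower and 2 higher in tumour cells at each site. Shares over all genes were 39.4% lower and 38.4% higher in the liver, and 37.1% and 39.5% in the peritoneum. Irak3, an inhibitory kinase homologue of macrophages, was lower by a log2 difference of -8.34 in the liver and -6.67 in the peritoneum. Sigirr, an epithelial inhibitor of Toll-like and interleukin receptors, was higher by 2.13 and 3.17. Sigirr was also higher in RasHIGH than in BMEL WT cultures (28.9 ± 7.06 against 2.90 ± 1.71 CPM, n = 3 each; log2 difference 3.28). In the same cultures Pik3ap1, an adaptor that limits Toll-like receptor signalling, was lower by -3.33, Tnfaip3, a ubiquitin-editing inhibitor of NF-kB, by -2.44 and Sarm1 by -1.39. In all, 4 of 9 tested regulators were lower and 1 higher in RasHIGH, beside 11.7% of all genes lower and 10.9% higher. In RasLOW 5 were lower and 0 higher, beside 4.05% and 1.92% of all genes, and Pik3ap1 (-2.12), Tnfaip3 (-1.49) and Nfkbia (-0.84) led.

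Among 7 proteins described as Toll-like receptor ligands, 6 were lower in tumour cells of the liver and 6 in those of the peritoneum. Shares of all genes called lower were 39.4% and 37.1%. Hmgb1, a nuclear protein released by dying cells, was the single ligand that was higher in liver tumour cells than in liver stroma (0.53). Between the stromas, 14.9% of all genes were higher and 18.5% lower in the liver, beside 0 and 3 of the 7 ligands. Matrix ligands marked the peritoneal stroma, where Tnc (liver against peritoneum -3.07), Bgn (-2.85) and Vcan (-1.92) were higher together with the fibroblast genes. In RasHIGH against BMEL WT 2 of 5 tested ligands were lower, Vcan (67.2 to 14.3 CPM) and Tnc (1.20 to 0.134 CPM), and 1 was higher, S100a8 (2.72) at a low level of 1.31 ± 0.504 CPM (n = 3). In RasLOW 3 of 4 were lower (Bgn, Tnc and Vcan, the last at 29.1 CPM) and 0 higher. Of all genes, 11.7% were lower and 10.9% higher in RasHIGH, and 4.05% and 1.92% in RasLOW.

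Inducible targets of the pathway followed the stroma too. Of 11 tested cytokine and enzyme targets, all 11 were lower in tumour cells at both sites, with medians of -8.17 in the liver and -7.07 in the peritoneum. Shares of all genes called lower were 39.4% and 37.1%. Between the stromas, 14.9% of all genes were higher and 18.5% lower in the liver. Tnf fell from 244 to 0.516 CPM and Ccl4 from 61.3 to 0.134 CPM in the liver, and Il1b had 4099 CPM in liver and 2421 CPM in peritoneal stroma. Il1b (0.71) and Ccl3 (0.73) were higher in liver stroma and the neutrophil attractant Cxcl1 (-1.72) was higher in peritoneal stroma, with 8 of 11 targets not called. In cultures 2 of the 12 targets were testable and 0 were called. The 3 comparisons of cultures share groups, as do those of sorted cells, so their counts are not independent.

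Genes most like each member were ranked by Pearson's r of log2(CPM + 1) over all 25 libraries among 11154 genes. The 8 stromal libraries are separated from the other 17 in every one of these series of values, so high r is shared by many stromal genes. Tlr13 was most like Vav1, Sla and Spi1, the myeloid transcription factor whose core was searched above (r = 0.999 each), Tlr2 most like Emb, Vav1 and Fcgr1 (0.998 to 0.999), and Tlr9 most like Ticam2 (0.999). The highest r was lower for Tlr4 (0.990, with Tnfrsf1b), Tlr1 (0.988, with H2-Q4) and Tlr3 (0.986, with Rtl8c). Within the 8 stromal libraries alone, Tlr4 was most like Socs4 (0.985) and Il1b (0.983), and Myd88 most like Tmc6 (0.988). Such values are the highest among 11154 genes over 8 libraries of 2 sites. Tlr2 with Rbp4 (0.973) and Tlr5 with Zwilch (0.971) reached similar ones, so the pairs named are descriptions only.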

How the data were processed

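Total RNA of 9 cultures and 16 sorted cell populations was made into NuGEN Universal Plus mRNAseq libraries and sequenced on a HiSeq 2500. The authors deposited raw read counts per gene for the 25 libraries, not normalized. The study's methods give alignment to mm9 with TopHat2 and pairwise tests with DESeq, whereas the submitters' processing notes name FastQC, Bowtie 0.12.2 and the builds mm8 and mm10. The counting program, strand setting and annotation are not given in the sources used here, and coordinates are therefore those of mm9 with GENCODE M1.

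Counts were tested with edgeR 4.0.16 (R 4.3.3): filterByExpr with a minimum count of 10, TMM factors, quasi-likelihood fits on the groups compared, and Benjamini-Hochberg adjustment over all genes tested, with calls at 0.05. The interaction was fitted on all 16 sorted libraries. SE is the log2 fold change divided by the square root of F. CPM used TMM factors over 25 libraries, and levels between genes were divided by exonic length. Alternatives were DESeq2 1.42.0, RLE factors, other filters, 1 fit of all libraries, replicate blocks, lane 4 only, the study's thresholds (log2 fold change 1.5 with p 0.01 for cultures, and 1 with 0.05 for tumours), leukocyte scaling and leaving out each library. The code was tested on simulated data. Intervals and floors cover counting error only, and in the sequencing no molecular identifiers are stated.

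Groups followed the labels. Sorted libraries of the same mouse pair by the labels (correlation of deviations 0.13 to 0.31 between liver tumour cells and stroma, 0.065 to 0.29 between peritoneal ones, -0.0071 to 0.36 between the stromas and -0.17 to 0.058 between the tumour cells of both sites). The named genes were the 10 members, and from each pathway list up to 3 called genes each way with the largest change per comparison. The members and lists were chosen with earlier results of these data known.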

Additional observations from a re-analysis of the deposited data

Results flagged for a closer look

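In groups of 4 libraries, a library was picked out where its distance from the nearest other, divided by the range of the group, passed Dixon's 95% critical value. Chance does so in about 1 of 20 groups, and 7 of 40 were picked out here. Of these, 5 were the peritoneal tumour library of mouse 1, which was highest in Tlr2 (6.30 CPM, next 0.864), Tlr3 (3.50, next 2.51), Tlr5 (0.375, next 0.0960), Tlr9 (0.718, next 0.0815) and Tlr13 (2.97, next 0.517). The leukocyte genes were highest in the same library, and their part was not tested. Mouse 3 was highest in Tlr3 among liver tumour cells (3.18 CPM, next 2.27). Mouse 2 was lowest in Tlr13 among peritoneal stroma (69.4 CPM, next 91.8).

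The difference between tumour cells and stroma differed between the liver and the peritoneum, by the interaction term of edgeR's test, for Myd88 (-0.93, adjusted p = 0.000913), Tlr4 (-0.66, adjusted p = 0.0331) and Cd14 (-0.65, adjusted p = 0.0389). Over 22 alternatives the call was lost in 13 for Tlr4, in 15 for Cd14 and in 0 for Myd88.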

How the results depend on the processing

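All 10 members stayed lower in tumour cells at both sites under every alternative run, leaving out each library included (10 to 10 members), and all 10 had their highest mean in stroma with CPM by total counts too. Other counts of called members moved. RasLOW against BMEL WT called 1 member, against 3 with DESeq2, 2 with no filter, 4 with all 25 libraries in 1 fit, and 0 with a 1 CPM filter, with lane 4 only or with the replicate number as a block; leaving out each library gave 0 to 3. RasHIGH against BMEL WT called 3, against 0 with lane 4 only and 2 to 4 on leaving out each library. RasHIGH against RasLOW called 0, against 2 with DESeq2, 1 with no filter, 3 with all 25 libraries in 1 fit and 1 with the study's thresholds, and 0 to 0 on leaving out each library. Liver against peritoneal stroma called 4, against 2 with all 25 libraries in 1 fit, 0 with the study's thresholds, 1 with leukocyte scaling and 4 to 5 on leaving out each library; Myd88 turned to -0.011 with leukocyte scaling. Tumour cells of the 2 sites called 0, against 1 with all 25 libraries in 1 fit, and 0 to 0 on leaving out each library. The interaction called 3, against 1 with no filter, 1 with all 25 libraries in 1 fit and 1 to 3 on leaving out each library. Where the alternative's construction does not show it, the cause was not tested.

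Mouse as a block changed 1 call, that of Cd14 between the stromas (log2 difference 0.37, adjusted p = 0.00582). Replicate numbers of the cultures mark no shared unit in the labels, and same-numbered cultures had correlations of deviations of -0.69 to 0.35; with the number as a block, Tlr5 in RasLOW (adjusted p = 0.0639) and Myd88 in RasHIGH (adjusted p = 0.0777) were not called. Counts of 0 to 5 limit the levels of Tlr5, Tlr7 and Tlr9 in tumour cells outside peritoneal mouse 1, apart from 20 counts of Tlr7 in peritoneal mouse 3. Over all genes, counts of calls that differed by over 1.5 times were, in RasLOW against BMEL WT (734), 1639 with DESeq2, 2440 with all 25 libraries in 1 fit, 295 with the block, 0 with lane 4 only and 148 to 2340 on leaving out each library. In RasHIGH against BMEL WT (2789) they were 4347 in 1 fit, 1190 with the study's thresholds, 316 with lane 4 only and 1517 to 3896 on leaving out each library. In RasHIGH against RasLOW (9) they were 416 with DESeq2, 77 with no filter, 917 in 1 fit, 0 with the block, 253 with the study's thresholds and 0 to 16. The study's thresholds gave 6437 and 6377 between tumour cells and stroma (11376 and 11168) and 2107 between stromas (4926), tumour cells of the 2 sites (419) gave 1235 with DESeq2, 102 with the block and 41 to 884, and the interaction (2191) gave 1180 in 1 fit.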
